A study of Mus musculus with 12 samples.

Results

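Peaks of N6-methyladenosine (m6A) signal in the transcripts of Xylt1, Chpf and Chst11, enzymes that build and sulfate chondroitin sulfate chains, were examined in the hippocampus of aged and young mice. All peaks carrying the name of any of these 3 genes were taken from the table of age-associated peaks, without regard to their values. Each gene had 1 peak, so that 3 of the 529 unique peaks in the table were described. The animals were male C57BL/6 mice with no genetic alteration or treatment, aged 20 months in the aged group and 3 months in the young group. Poly(A) RNA of individual hippocampi was fragmented and pulled down with an antibody against m6A (MeRIP-Seq), and each age had 3 immunoprecipitate (IP) libraries and 3 input libraries. The biological replicates had been selected from a qPCR assay run beforehand. The paper's qPCR of hippocampal RNA measured known aging-related genes, Cldn2 among them, and it does not say whether this was that assay. The inputs were not used here. Differences in the IP reads of a peak between the ages therefore cannot be told apart as differences in methylation, in transcript level or in cell composition. In whole tissue, fewer cells of a type and less RNA per cell cannot be told apart either.

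Chondroitin sulfate is a long, unbranched sugar chain attached to the core proteins of proteoglycans. Synthesis begins in the secretory pathway, where a xylose is placed on a serine of the core protein and extended to a short linker, after which alternating sugars are added and then sulfated. In the brain, chondroitin sulfate proteoglycans are a main component of the extracellular matrix and of the perineuronal nets that surround certain neurons, and the position of the sulfate groups affects which proteins bind the chains. The 3 genes act at successive steps. Xylt1 encodes a xylosyltransferase that adds the first sugar, Chpf encodes the chondroitin polymerizing factor that works with chondroitin synthases to lengthen the chain, and Chst11 encodes a sulfotransferase that places sulfate on carbon 4 of the chain's N-acetylgalactosamine.

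All 3 peaks overlapped the first exon of their gene, as did 299 of the 510 listed peaks whose gene was found in GENCODE M21. The Xylt1 peak lay on the plus strand at chr7:117381231-117381431 of mm10 and was coding throughout, beginning 52 bases after the first base of the coding sequence in an exon of 542 bases. It is shown whole because it is the coding member of the set. Matches to DRACH are in capitals, the m6A consensus in which D is A, G or T, R is A or G, and H is A, C or T. The sequence is that of GRCm38, the assembly of mm10, 5′ to 3′.
Xylt1: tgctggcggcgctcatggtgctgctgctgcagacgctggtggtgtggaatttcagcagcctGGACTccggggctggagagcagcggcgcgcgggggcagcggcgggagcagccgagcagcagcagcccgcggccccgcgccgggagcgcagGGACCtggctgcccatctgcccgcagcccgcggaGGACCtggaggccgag

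Each of the 3 DRACH matches in Xylt1 also held GGAC, the core of the consensus. They stood 115, 205 and 239 bases after the first coding base, counted at the central A. The Chpf peak lay on the minus strand at chr1:75479098-75479297 and was annotated as 5′ untranslated region, start codon and exon, with 8 coding bases at its 3′ end in the GENCODE transcripts that use the upstream start codon. In the one of these that reaches furthest upstream, the first 26 bases of the peak precede the annotated start. The first exon of a further GENCODE transcript, whose start codon lies downstream, covers all 200 bases, as does that of both RefSeq transcripts. The 3′ end of another gene on the same strand, Obsl1, lies 13 bases upstream of the peak and does not overlap it.

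The single DRACH match in the Chpf peak lay 18 bases before the first coding base of the upstream start codon, and a further GGAC, followed by a G and so outside DRACH, lay 5 bases before it. The Chst11 peak lay on the plus strand at chr10:82985450-82985649 and was annotated as 5′ untranslated region only. It ended 216 bases before the coding sequence. Its first 48 bases precede the transcript start in GENCODE, and a predicted RefSeq transcript that starts further upstream covers all 200 bases. The earlier of the 2 DRACH matches in Chst11 fell in this stretch before the GENCODE start. The matches of these peaks are shown in windows of 25 bases, since they mark where a methylated A could lie in each peak, again 5′ to 3′ on the strand of the gene.
Chpf at chr1:75479111-75479135: cgggggccggGGACCcgctgtcggg
Chst11, first match, at chr10:82985472-82985496: aggggggcctGGACAgtcacagagg
Chst11, second match, at chr10:82985607-82985631: gaggcgaggcGGACCggcaggagcg

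Every DRACH match in the 3 peaks was thus a GGAC followed by A, C or T, and GGACC occurred in all 3. The motifs were searched on the strand of the gene only, since the assay reads RNA. Where a listed peak named genes on both strands, the strand of the gene listed first was taken. Of the 529 listed peaks, 85.1% held DRACH and 68.4% held GGAC on the strand searched. Among the 268 peaks of 200 or 201 bases, the lengths of these 3 peaks, the shares were 84.3% and 65.3%. In the same 268 peaks, 31.0% held at least 2 GGAC, as Chpf and Chst11 did, and 11.6% held at least 3, as Xylt1 did. A match does not show that the A is methylated.

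**Figure D1:**
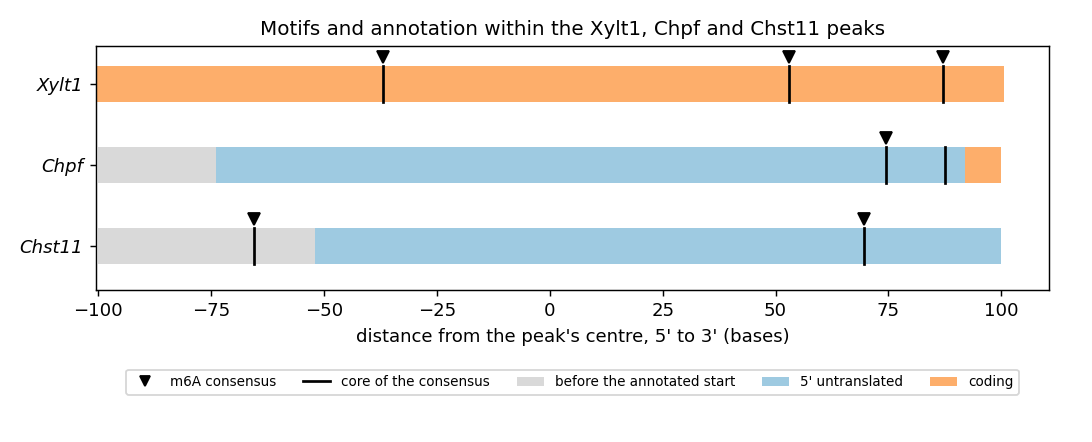
The Xylt1, Chpf and Chst11 peaks drawn 5′ to 3′ against the distance in bases from each peak's centre, with colours for bases before the annotated start, 5′ untranslated and coding bases in GENCODE M21, triangles for the m6A consensus (DRACH) and lines for its core (GGAC). Xylt1 is coding throughout with 3 matches, whereas the Chpf peak has 8 coding bases and the Chst11 peak none.

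The peaks were rich in G and C, with 78.5% GC in Chpf, 75.5% in Chst11 and 75.1% in Xylt1. The median was 69.8% over all 529 peaks, 73.5% over the 417 peaks whose reads were higher in aged hippocampi by the fold change and 45.5% over the 112 that were lower. Soft-masked repeat bases made up 14.0% of the Chst11 peak and were missing from the other two.

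Reads were compared as reads per 1000000 of the effective size of each library (CPM). This size was fitted to the deposited average abundance of the peaks and is a scaling value, not a count of sequenced reads. It was between 6158014 and 12534186 in aged IP libraries and between 12814321 and 16084217 in young IP libraries. All listed peaks together held 322474 to 697362 reads in aged libraries and 465628 to 701150 in young libraries. The table holds only peaks that were called differential on these same libraries. The tests on them are therefore not independent evidence of a difference, and whether markers of neurons or astrocytes matched the tissue label could not be checked, because none of the 15 listed as markers had a peak there.

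Xylt1 had the most reads of the 3 peaks. It held 555, 368 and 507 reads in aged IP libraries 1, 2 and 3, against 476, 502 and 489 reads in young IP libraries 1, 2 and 3. Scaled to library size, these were 44.3, 59.8 and 58.0 CPM in aged hippocampi, against 31.9, 39.2 and 30.4 CPM in young hippocampi. With these sizes all aged libraries lay above all young libraries, by 5.10 CPM between the lowest aged and the highest young library. The means were 54.0 ± 8.48 CPM in aged and 33.8 ± 4.69 CPM in young (SD, n = 3 each), a ratio of 1.597.

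Chpf, the chain-lengthening factor, was the most variable. It held 288, 214 and 322 reads in aged IP libraries 1, 2 and 3, against 179, 472 and 190 reads in young IP libraries 1, 2 and 3. Scaled to library size, these were 23.0, 34.8 and 36.9 CPM in aged hippocampi, against 12, 36.8 and 11.8 CPM in young hippocampi. The ages overlapped, because young library 2 stood next to the highest aged library while the other young libraries lay below every aged one. The means were 31.5 ± 7.48 CPM in aged and 20.2 ± 14.4 CPM in young (SD, n = 3 each), a ratio of 1.56.

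Chst11, the sulfotransferase, had the lowest mean CPM in either age, although Chpf was lower in young libraries 1 and 3. It held 282, 158 and 266 reads in aged IP libraries 1, 2 and 3, against 224, 246 and 193 reads in young IP libraries 1, 2 and 3. Scaled to library size, these were 22.5, 25.7 and 30.4 CPM in aged hippocampi, against 15.0, 19.2 and 12 CPM in young hippocampi. With these sizes all aged libraries again lay above all young libraries, by 3.30 CPM at the closest. The separation in both genes was lost under the other scalings given below. The means were 26.2 ± 4.002 CPM in aged and 15.4 ± 3.61 CPM in young (SD, n = 3 each), a ratio of 1.70. Counting error alone was between 4.24% and 7.96% of the reads of any of these peaks in any library, below the spread between libraries.

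**Figure D2:**
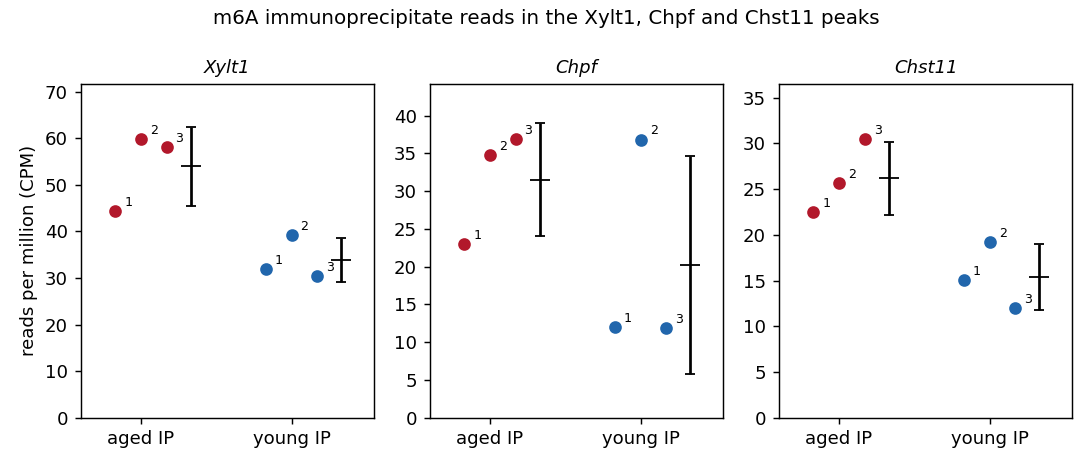
CPM of the Xylt1, Chpf and Chst11 peaks in each IP library (points, numbered by replicate), with aged left of young and the mean ± SD of 3 libraries beside each group. With the effective library sizes, the ages are apart in Xylt1 and Chst11 and overlap in Chpf, where young library 2 reached 36.8 CPM.

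None of the 3 peaks passed the test for a difference between the ages that was used here. It does not repeat the authors' test, a likelihood ratio test with optional removal of unwanted variation (RUV). With edgeR's quasi-likelihood test over all 529 peaks and Benjamini-Hochberg adjustment, the log2 fold change (aged over young) was 0.67 for Xylt1 (SE 0.31, adjusted p = 0.167), 0.64 for Chpf (SE 0.42, adjusted p = 0.196) and 0.77 for Chst11 (SE 0.32, adjusted p = 0.167). Thus 0 of 3 peaks were called, where 6 of all 529 peaks (1.13%) were called higher in aged. At an unadjusted threshold of 0.05, Chst11 and Xylt1 passed and Chpf did not, where 17.2% of all peaks passed in that direction. Aged libraries lay above all young ones in 2 of the 3 peaks, against 32.1% of all peaks. With 3 peaks, these shares do not set the genes apart from the rest of the table.

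The fold changes were also close to those of the table as a whole. The median log2 fold change was 0.59 over all 529 peaks and 0.64 over the 417 higher ones. Chst11 ranked 81, Xylt1 157 and Chpf 202 among the 529 peaks from the most positive fold change. Relative to the median of all peaks, Chst11 stood 0.18 higher, Xylt1 0.09 higher and Chpf 0.06 higher on the log2 scale.

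The size of the difference depended on how the libraries were scaled. The CPM, spreads and fold changes rest on effective library sizes recovered from the deposited average abundance of the peaks. The deposited fold changes were not used, and the sizes they would give were not reconciled with these, above all for young library 2, whose excess depends on its size. The authors' methods also name RUV as an option, and the fits here left it out. Its part in any difference from the deposited fold changes was not tested. When the summed reads of the listed peaks were used as library sizes, the log2 fold changes became 0.15 for Xylt1, 0.28 for Chpf and 0.27 for Chst11. DESeq2 size factors gave 0.02 for Xylt1, 0.16 for Chpf and 0.14 for Chst11. This scaling moved the whole table, with a median shift of -0.58 on the log2 scale, and left Chst11 0.12 and Chpf 0.14 above the median of all peaks and Xylt1 at that median. Both scalings assume that the listed peaks do not differ between the ages as a whole, which a table of peaks chosen for a difference need not meet. Calls over all 529 peaks numbered 6 higher and 45 lower with DESeq2 size factors, against 6 higher and 0 lower with the effective sizes. No scaling turned the sign of the log2 fold change of any of the 3 peaks. With DESeq2 size factors, however, each value was smaller than its SE (0.23 for Xylt1, 0.31 for Chpf and 0.22 for Chst11). The sign there settles no direction.

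The separation of the ages did not hold under these scalings. With the summed reads as sizes, Xylt1 had 795.9, 1141 and 1013 reads per 1000000 listed reads in aged libraries 1, 2 and 3, against 886.2, 716.0 and 1050 in young libraries 1, 2 and 3. Chst11 had 404.4, 490.0 and 531.3 in aged libraries, against 417.0, 350.9 and 414.5 in young libraries. The ages overlapped in both, as they did in Chpf. Aged libraries lay above all young ones in 0 of the 3 peaks with summed reads (10.2% of all peaks), with TMM factors (4.16% of all peaks) and with DESeq2 size factors (4.54% of all peaks). These comparisons of levels were added after the values had been seen.

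**Figure D3:**
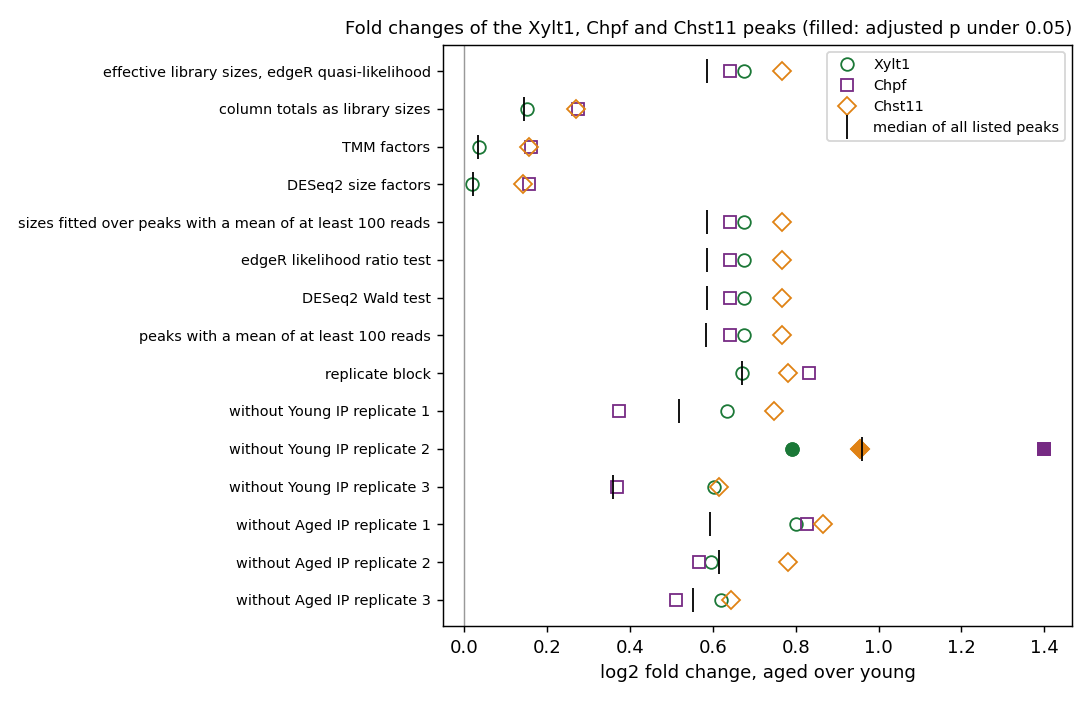
The log2 fold change (aged over young) of the Xylt1, Chpf and Chst11 peaks under each setting, with filled symbols where the adjusted p was under 0.05 and a vertical tick at the median of all listed peaks. Values stay above 0 throughout, fall close to 0 with DESeq2 size factors, and pass the threshold only without young IP replicate 2.

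With the effective sizes, a single library decided the calls of the fits made here. Young library 2 was then the highest young library in all 3 peaks, as it was in 388 of the 417 peaks that were higher in aged (93.0%). It exceeded the mean of young libraries 1 and 3 by 3.09 times in Chpf, 1.42 times in Chst11 and 1.26 times in Xylt1, where the median over the 417 peaks was 1.90 times. Chpf thus stood at rank 22 of these 417 peaks for the excess of young library 2, and Chst11 and Xylt1 at ranks 344 and 373. With summed reads as sizes, young library 2 was instead the lowest young library in Xylt1 and Chst11, at 0.740 and 0.844 times the mean of young libraries 1 and 3. It stayed the highest in Chpf, at 1.82 times, and was the highest in 221 of the 417 peaks. The excess of young library 2 was larger in Chpf than in Xylt1 and Chst11 under either scaling. The raw reads nearly fix this order, since the size of a library scales all its peaks alike, so the scalings do not check it. Whether young library 2 was in excess in Xylt1 and Chst11 depended on the sizes.

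With edgeR's quasi-likelihood test run without young library 2, all 3 peaks passed. They had a log2 fold change of 1.40 for Chpf (adjusted p = 0.00024), 0.95 for Chst11 (adjusted p = 0.0027) and 0.79 for Xylt1 (adjusted p = 0.0051). In that fit 77.5% of all 529 peaks were called higher in aged, so the change was not particular to these genes. Measured against young libraries 1 and 3 alone, the aged mean was 2.65 times as high for Chpf, 1.94 times for Chst11 and 1.73 times for Xylt1. Against young library 2 alone, the aged mean was 0.856 times as high for Chpf, 1.36 times for Chst11 and 1.38 times for Xylt1.

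The excess of young library 2 went with base composition over the table. Across the 529 peaks, the log2 ratio of young library 2 to the mean of young libraries 1 and 3 correlated with GC content (Pearson's r = 0.60), and so did the log2 fold change between the ages (r = 0.61). These are descriptions across peaks of the same libraries, not independent replicates. Both values also hold the split between higher and lower peaks, whose median GC contents were 73.5% and 45.5%. Within the 417 higher peaks, where the 3 enzymes lie, the relation of GC content with young library 2 had an r of 0.14. The relation of GC content with the fold change was not computed within the higher peaks. The part of base composition in the values of Xylt1, Chpf and Chst11 was not tested.

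**Figure D4:**
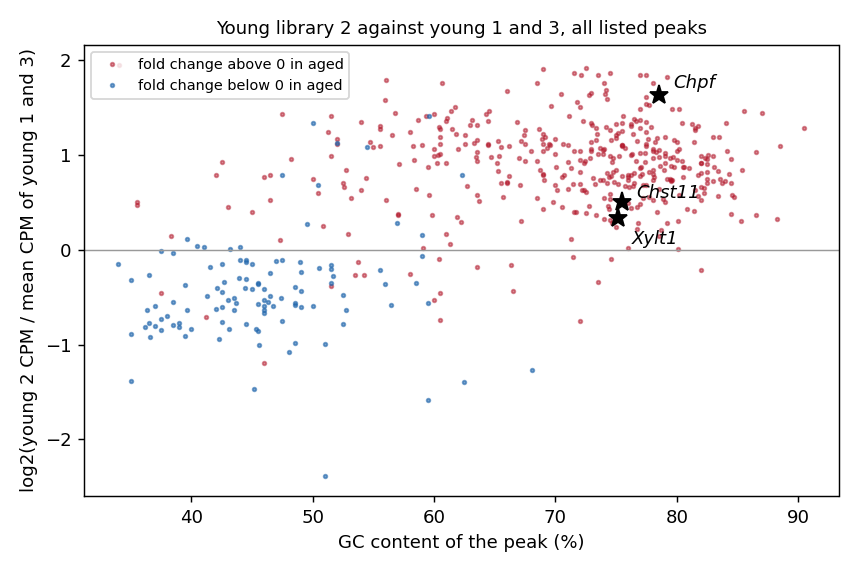
GC content of each of the 529 peaks (x axis, percent) against the log2 ratio of young IP library 2 to the mean of young libraries 1 and 3 (y axis, CPM with effective sizes), in red where the fold change was above 0 in aged and in blue where it was below, with stars for the 3 enzymes. All 3 lie on the GC-rich side, Chpf at 3.09 times and Xylt1 and Chst11 below the 1.90 times that was the median of the red peaks.

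Among the aged libraries, again with the effective sizes, the pattern was different. Aged library 1 was the lowest aged library in all 3 peaks, at 0.642 times the mean of aged libraries 2 and 3 in Chpf, 0.752 times in Xylt1 and 0.802 times in Chst11. Aged library 1 was the lowest in 110 of the 417 higher peaks (26.4%), and its median ratio there was 0.995. The coefficient of variation among aged libraries was 23.7% for Chpf, 15.7% for Xylt1 and 15.3% for Chst11, against a median of 12.4% over the 417 peaks. Among young libraries it was 71.2% for Chpf, 13.9% for Xylt1 and 23.5% for Chst11, against a median of 43.0%. Xylt1 and Chst11 were therefore steadier among young libraries than most higher peaks, and Chpf was not.

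The proportions of the 3 peaks within a library do not depend on its size. The ratio of Chst11 to Xylt1 reads was 0.508, 0.429 and 0.525 in aged libraries 1, 2 and 3, against 0.471, 0.490 and 0.395 in young libraries 1, 2 and 3. The ages overlapped. The ratio of Xylt1 to Chpf reads was 1.93, 1.72 and 1.57 in aged libraries, against 2.66, 1.06 and 2.57 in young libraries. Young library 2 lay below every aged library in this ratio and the other young libraries lay above. The ratio of Chst11 to Chpf reads was 0.979, 0.738 and 0.826 in aged libraries, against 1.25, 0.521 and 1.02 in young libraries, again with young library 2 lowest. The mean log2 ratios differed between the ages (aged minus young) by 0.11 for Chst11 to Xylt1, -0.16 for Xylt1 to Chpf and -0.05 for Chst11 to Chpf. Each difference was smaller than the SD among libraries of an age (0.16, 0.54 and 0.49 for these pairs, pooled over both ages), so that no change in proportion between the 3 enzymes was seen beyond the spread.

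Over the 6 IP libraries and with the effective sizes, the log2 CPM of Chst11 and Xylt1 had a Pearson's r of 0.96, that of Chst11 and Chpf 0.86 and that of Xylt1 and Chpf 0.84. These values share library and scaling, and many peaks moved alike, since 161 other peaks had an r above 0.9 with Chst11, 79 with Chpf and 39 with Xylt1. The peaks of other genes most like Xylt1 were those of Kcnk3, a potassium channel gene whose peak also carries the name Gm9899 (r = 0.99), Cebpa, a transcription factor (r = 0.98), and Mast2, a kinase (r = 0.97). For Chpf they were Kdm2a, a histone demethylase (r = 0.98), Slc30a4, a zinc transporter (r = 0.98), and Rnf149, a ubiquitin ligase (r = 0.97). For Chst11 they were Hipk3, a kinase (r = 0.99), Amigo1, a neuronal adhesion protein (r = 0.99), and Mast2 (r = 0.99).

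The lists held 140 gene names for the synthesis, sulfation, core proteins, binding partners and breakdown of glycosaminoglycans. Impad1 and Bpnt2 among them name the same gene. Of the 140 names, 6 had a peak there, and 3 of these were the enzymes above. No peak was listed for the other 6 of 7 linker genes, the other 5 of 6 genes of chain polymerisation or the other 9 of 10 genes of chondroitin and dermatan sulfation. No peak was listed for the 34 core proteins, the 5 genes of keratan sulfate synthesis, the 6 receptors or the 27 genes of breakdown. A gene without a listed peak may have m6A that was not called different, or have no called peak, and the table does not separate these. The share of all genes with a listed peak was not computed. These counts therefore do not show whether the lists hold more or fewer such genes than others do. All 6 listed peaks had fold changes above 0, as did 417 of all 529 peaks (78.8%), and their median log2 fold change was 0.70 against 0.59 over all peaks. These 6 include the 3 enzymes, so that only 3 are further genes, and 0 of the 6 were called by edgeR's quasi-likelihood test in either direction.

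Impad1, which encodes a Golgi phosphatase that clears the by-product of sulfation, had 120.7, 123.7 and 136.7 CPM in aged libraries 1, 2 and 3, against 88.4, 130.6 and 38.0 CPM in young libraries 1, 2 and 3. The ages overlapped through young library 2, and the log2 fold change was 0.57 (SE 0.42, edgeR adjusted p = 0.222). Hs3st4, a heparan sulfate 3-O-sulfotransferase gene whose peak also carries the name Gm27040, had 17.5, 18.2 and 20.4 CPM in aged libraries, against 7.98, 20.4 and 5.41 CPM in young libraries. Its ages overlapped in the same way, with a log2 fold change of 0.73 (SE 0.43, edgeR adjusted p = 0.169). Young library 2 exceeded the mean of the other young libraries by 3.04 times in Hs3st4 and 2.06 times in Impad1, so that Hs3st4 had nearly the same pattern over the young libraries as Chpf.

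Hapln2, a link protein that ties hyaluronan to proteoglycans at nodes of Ranvier, had 32.1, 28.9 and 19.3 CPM in aged libraries 1, 2 and 3, against 10.8, 18.9 and 6.78 CPM in young libraries 1, 2 and 3. It was the only one of these further genes whose ages did not overlap, with the lowest aged and highest young library close together. Its log2 fold change was 1.14 (SE 0.39, edgeR adjusted p = 0.167), and its GC content of 59.0% was lower than that of the 3 enzymes. The peak of Mobp, the one oligodendrocyte marker of 6 listed, had 1049 to 1634 CPM in aged libraries and 485.8 to 1201 CPM in young libraries. Its part in the values of Hapln2, a gene of oligodendrocytes, was not tested.

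**Figure D5:**
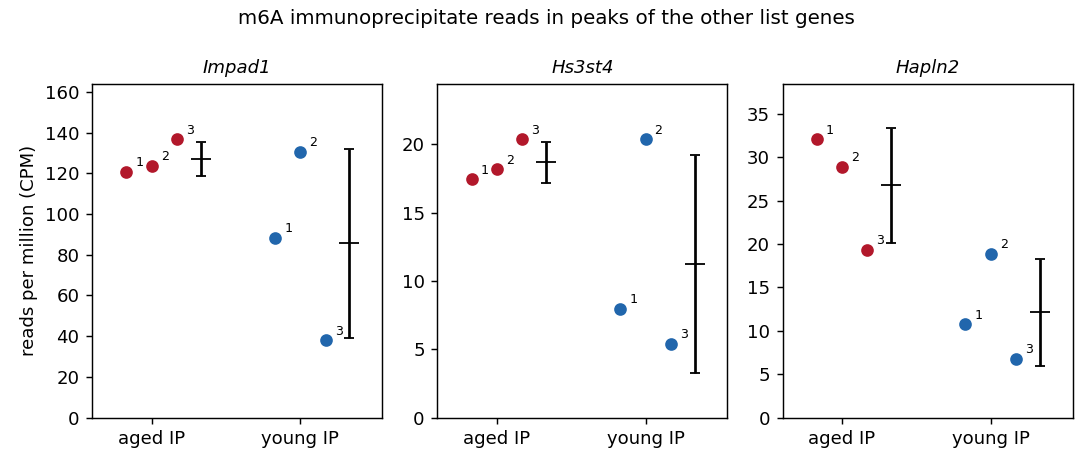
CPM of the peaks of Impad1, Hs3st4 and Hapln2 in each IP library (points, numbered by replicate), with aged left of young and the mean ± SD of 3 libraries beside each group. Young library 2 lies within the aged range in Impad1 and Hs3st4, at 130.6 and 20.4 CPM, and just below it in Hapln2, at 18.9 CPM.

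Of 47 markers of hippocampal and neighbouring cell types, 5 had a peak in the table. Besides Mobp, these were the microglial genes Tmem119 and C1qc, whose summed signal was 230.9 to 287.2 CPM in aged and 108.9 to 219.7 CPM in young libraries, and Gpr17 of oligodendrocyte precursors, whose 4 peaks summed to 225.2 to 236.4 CPM in aged and 357.3 to 530.0 CPM in young libraries. Cldn2 of the choroid plexus, also among the genes of the paper's qPCR, had 3.73 to 18.5 CPM in aged and 7.10 to 45.1 CPM in young libraries. The part of cell composition in the values of Xylt1, Chpf and Chst11 was not tested.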

How the data were processed

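Hippocampal poly(A) RNA was profiled by MeRIP-Seq, with 3 IP and 3 input libraries per age. Per the submitters' processing notes, the tools included STAR 2.5.3a, Bowtie2 2.2.7 and Trimmomatic 0.36, then MACS2 2.2.1, bedtools 2.25.0, Subread 1.6.4 and SAMtools 1.3, with the mm10 build. The authors called peaks over input, counted uniquely mapped IP reads per peak and tested them with edgeR's likelihood ratio test. Their methods add removal of unwanted variation (RUV) as an option, which no fit here included. The deposited table (862 rows, 529 unique peaks) gives raw read counts and a log2 average abundance from the authors' edgeR fit. Its columns of fold change, p-value and adjusted p-value were not used. Whether reads were counted by strand is not given in the sources used here.

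Effective library sizes were fitted by least squares to the deposited log2 average abundance with edgeR's formula (largest residual 4.47e-09). They were not reconciled with the deposited fold changes. Counts were tested with edgeR 4.0.16 (quasi-likelihood test, two-sided, Benjamini-Hochberg over 529 peaks, threshold 0.05) in R 4.3.3, aged over young, after a test of the procedure on simulated data. DESeq2 1.42.0 and other sizes and tests were alternatives. Deposited starts were read as counting from 0. Sequences came from RefSeq's GRCm38 and exons from GENCODE M21. The SDs measure the spread between 3 libraries per age. The p-values and SEs rest on that spread together with dispersion estimates shared across the 529 peaks. They are therefore not measures of the spread of a single peak alone. All peaks of the 3 enzymes and of the listed genes were named, with the 3 most similar peaks of each enzyme by Pearson's r. These genes and lists were chosen with earlier results of these data known.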

Additional observations from a re-analysis of the deposited data

How the results depend on the processing

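The log2 fold changes of Xylt1, Chpf and Chst11 kept their direction under all 14 alternatives each (42 values), and 3 of these passed the adjusted threshold of 0.05, all without young IP library 2. Alternatives that changed only the test, the fitting of the effective sizes or the minimum of reads per peak could hardly move the fold changes. With TMM factors or DESeq2 size factors, each of the fold changes was smaller than its SE, so the sign there settles no direction. Leaving out each library in turn gave 0.60 to 0.80 for Xylt1, 0.37 to 1.40 for Chpf and 0.61 to 0.95 for Chst11. Of all 529 peaks, 6 were called higher and 0 lower in aged by edgeR's quasi-likelihood test (91 and 48 at an unadjusted p under 0.05). edgeR's likelihood ratio test and DESeq2's Wald test each called 11 higher and 1 lower. Leaving out each library gave 4 to 410 higher and 0 to 103 lower, with 410 higher and 103 lower without young IP library 2 and 14 higher without young IP library 3. Lower calls numbered 3 with column totals as library sizes, 87 with TMM factors and 45 with DESeq2 size factors (the cause was not tested).

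No pairing of the samples by replicate number was seen, as the deviations of same-numbered libraries correlated at -0.18, -0.03 and -0.02. Those of other pairs correlated at -0.02 to 0.08. Taken over peaks chosen for an age difference, these values do not settle whether the samples were paired. The replicate block called 6 higher and 1 lower and gave log2 fold changes of 0.67 for Xylt1, 0.83 for Chpf and 0.78 for Chst11, none past the threshold. The ratio of Xylt1 to Chpf reads differed between the ages by -0.59 to 0.07 (log2) over left-out libraries, that of Chst11 to Chpf by -0.42 to 0.21 and that of Chst11 to Xylt1 by 0.02 to 0.20, so the first and second of these changed sign. Motif counts were the same with starts read as counting from 1. Counting error was between 4.24% and 7.96% of the reads of the 3 peaks in each library.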
